A study of Mus musculus with 9 samples.

Results

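The genes described here are 10 early response and stress response genes outside the EGR and AP-1 families: Atf3, Maff, Myc, Srf, Nr4a1, Ier2, Ier5, Ier3, Btg2 and Gadd45b. They were taken by gene symbol, not by a threshold on their values, and all 10 were among the 14771 genes of the deposited table; all 10 were also among the 11281 genes with enough counts to be tested. RNA was sequenced from MH-S cells, an established mouse alveolar macrophage line, in 3 groups of 3 libraries. SUR cells received, by the treatment protocol, 200 µM suramin and 1 µg/ml lipopolysaccharide (LPS) for 4 h, although the sample labels of that group name suramin alone. LPS cells received 1 µg/ml LPS for 4 h, and CON cells received medium. Read by the protocol, no group received suramin without LPS, so suramin can be compared here only on top of LPS. MH-S is a single transformed line kept in culture, and no label says that the libraries of a group came from separate cultures; p-values therefore measure the spread between these libraries, which may be technical.

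Immediate-early genes are transcribed within minutes of a stimulus from factors already present in the cell, and their mRNAs are usually short-lived. In macrophages LPS acts through the receptor TLR4, which activates NF-kappaB and the MAP kinases; these kinases act on serum response factor (SRF) and its partners and on factors of the ATF/CREB family. Many of the induced genes encode transcription factors or feedback regulators of the inflammatory response. Suramin, a large polysulfonated compound, antagonizes P2 purinergic receptors and keeps many growth factors from binding their receptors.

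Library totals ran from 15729402 to 16675250 counts. All 12 pan-macrophage markers were tested, and their summed level was 5382 to 8007 CPM (gene counts scaled by library depth) in SUR, 6358 to 9171 CPM in LPS and 5518 to 7744 CPM in CON. Of 10 alveolar macrophage markers, 7 were in the table; Itgax, Fabp4 and Fabp5 passed the filter, whereas Siglecf, Pparg, Chil3 and Marco did not exceed 0.576 CPM in any library. Markers of epithelial cells summed to at most 0.183 CPM, those of lymphocytes and neutrophils to at most 0.296 CPM, and those of fibroblasts and endothelium to at most 1.84 CPM. The libraries numbered 1 stood apart in every group: the chi-square per degree of freedom between library 1 and library 2 or 3 of the same group was 28.5 to 36.0, against 3.75 to 6.06 between libraries 2 and 3. Deviations from the group means were correlated between same-numbered libraries (r = 0.435 to 0.801 over 9 pairs), so a fit with the library number as a block is given below where it changes a call. The RNA is bulk RNA, and a change in the share of cells that carry an mRNA cannot be told apart from a change in its amount per cell.

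LPS raised 8 of the 10 genes, and in SUR 5 of these 8 were lower than in LPS. These were Atf3, Myc, Srf, Maff and Ier5. Of the 5, Ier5 was called higher in SUR than in CON, and the others were not called between SUR and CON, where the intervals for Myc and Maff reach log2 values of 2.598 and 2.96. Ier2, Gadd45b and Btg2 were not called different between SUR and LPS. Ier3 was 2.84-fold higher in LPS than in CON but its 3 CON libraries were spread widely, and it was not called in the fit of all libraries (adjusted p = 0.0868), although it was with the block, by limma-voom and without CON 1. Nr4a1 was not called in any comparison. The test was edgeR's quasi-likelihood F test with Benjamini-Hochberg adjustment over the 11281 tested genes, and a gene is called here at an adjusted p under 0.05.

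Across all tested genes, 8.98% were called higher in LPS than in CON, 7.93% lower in SUR than in LPS, and 0.39% higher in SUR than in CON. Against these shares stood 8 of 10, 5 of 10 and 3 of 10 of the listed genes. The 10 genes were chosen with earlier results of these data known, so these counts are a description and not an independent test. The median log2 fold change of the 10 genes was 1.31 for LPS over CON, −0.38 for SUR over LPS and 0.98 for SUR over CON; over all tested genes the median was −0.01 in each comparison. Of the listed genes that rose in LPS, 5 of 8 were lower in SUR than in LPS, against 714 of all 1013 genes that rose in LPS (70.5%). Genes both higher in LPS than in CON and lower in SUR than in LPS made up 6.33% of those tested, and genes higher in LPS but not called between SUR and LPS, as Ier2, Gadd45b and Btg2 were, 2.64%. Under upper-quartile scaling LPS against CON gave 765 genes higher and 1709 lower, against 1013 and 1056 with TMM, and SUR against LPS gave 1595 higher and 616 lower, against 1048 and 895 with TMM; the calls of the 10 genes did not change. Higher in both LPS and SUR than in CON were 39 genes (0.346% of those tested), among them Ier2, Ier5 and Gadd45b. The comparisons SUR over LPS and LPS over CON share the LPS libraries, and a high LPS value by chance would move both.

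**Figure D1:**
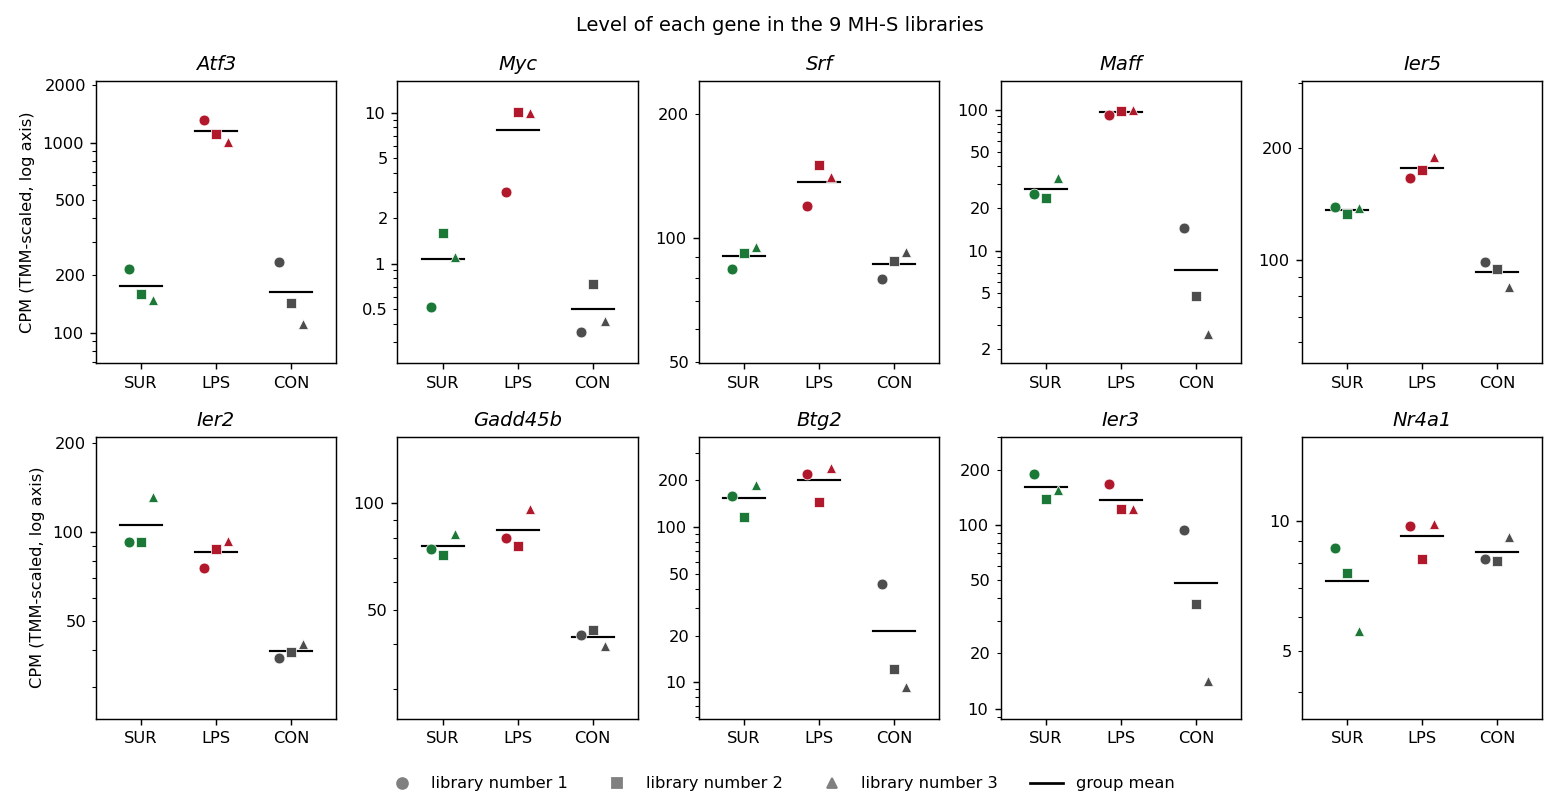
Level of each of the 10 genes in the 9 libraries, in CPM scaled by TMM on a log axis that differs between panels; marker shape gives the library number and the bar the mean of 3 libraries. Atf3 in LPS lay at 1010.5 to 1317 CPM, above all SUR and CON libraries, whereas Ier2, Gadd45b, Btg2 and Ier3 overlapped between SUR and LPS.

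Among the transcription factors, Atf3 was the highest per length in all groups. Atf3 is a basic leucine zipper factor of the ATF/CREB family that is induced by many stresses and, in mouse macrophages, restrains cytokine genes downstream of TLR4. Its gene lies on chromosome 1 (GRCm38, chr1:191170296-191183333, minus strand); in GENCODE M21 a longer Atf3 model overlaps a small RNA gene on the opposite strand. Atf3 measured 217, 161 and 148 CPM in SUR, against 1317, 1106 and 1010.5 CPM in LPS and 235, 143 and 111 CPM in CON. The LPS libraries stood above all others, and the SUR and CON libraries overlapped. Atf3 was 7.03-fold higher in LPS than in CON (log2 2.81, SE 0.278, adjusted p = 0.000207) and 6.54-fold lower in SUR than in LPS (log2 −2.71, SE 0.277, adjusted p = 0.000416). Between SUR and CON the log2 difference was 0.10, with a 95% interval of −0.49 to 0.70 (adjusted p = 0.995). Its sign turned without CON 3 (−0.11) and without SUR 1 (−0.07). The 250 bases before the Atf3 start (chr1:191183334-191183583, minus strand, RefSeq, GRCm38.p6) are shown because Atf3 fell furthest in CPM and its promoter holds a C/EBP-ATF composite element, which ATF4 can bind with a C/EBP partner; capitals mark this match, TTGCATCA.
Atf3: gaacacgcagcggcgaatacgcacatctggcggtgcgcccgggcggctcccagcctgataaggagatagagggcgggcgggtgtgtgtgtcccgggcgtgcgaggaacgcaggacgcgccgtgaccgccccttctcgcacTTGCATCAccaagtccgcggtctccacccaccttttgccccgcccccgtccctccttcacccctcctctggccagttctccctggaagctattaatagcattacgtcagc
A match to TTGCATCA on either strand was present in 0.895% of the 32851 RefSeq promoters searched over 250 bases before to 50 after the start.

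Myc had low counts and changed by several fold, with wide intervals. Myc encodes a growth-promoting factor that binds E-boxes as a dimer with MAX (chr15:61985341-61990361, plus strand). It had 9, 27 and 19 counts in SUR, against 47, 149 and 150 counts in LPS and 6, 12 and 7 counts in CON, or means of 1.08 ± 0.540, 7.67 ± 4.07 and 0.499 ± 0.203 CPM (SD, n = 3 each). Every LPS library was above every SUR and CON library, and within LPS, SUR and CON alike library 1 was the lowest. Myc was 15.2-fold higher in LPS than in CON, with an interval of 6.01 to 38.4 (log2 3.92, adjusted p = 0.00184). It was 7.10-fold lower in SUR than in LPS (log2 −2.83, adjusted p = 0.00692). Between SUR and CON the log2 difference was 1.10 with an interval of −0.40 to 2.598 (adjusted p = 0.740; with the block, adjusted p = 0.0586), so neither a return to the CON level nor a remaining rise was resolved. The within-number differences of SUR from CON were 0.44, 1.01 and 1.19. On the log2(FPKM + 1) scale the Myc change in LPS over CON was 1.72.

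Srf moved little in size but evenly across libraries. SRF is the MADS-box factor that binds CArG boxes, and its own gene is a known SRF target (chr17:46546838-46558267, minus strand). Srf measured 83.8, 91.8 and 94.98 CPM in SUR, against 120, 150 and 141 CPM in LPS and 79.3, 87.9 and 92.3 CPM in CON. The LPS libraries were the highest, and the SUR and CON ranges overlapped. Srf was 1.58-fold higher in LPS than in CON (log2 0.66, SE 0.0984, adjusted p = 0.00174) and 1.52-fold lower in SUR than in LPS (log2 −0.60, SE 0.0983, adjusted p = 0.00361). SUR and CON differed by 0.06 on the log2 scale (interval −0.16 to 0.28, adjusted p = 0.985), and without CON 1 the difference was −0.0027. The within-number differences of LPS from CON were 0.59, 0.77 and 0.61, and those of SUR from CON 0.08, 0.06 and 0.04. GENCODE M21 places a long intergenic RNA gene across Srf on the opposite strand; whether the counting used strand is not given in the sources used here, so their reads cannot be told apart. The bases before 1 annotated Srf start (chr17:46556163-46556412, minus strand, RefSeq, GRCm38.p6) are shown because they hold a pair of matches to the CArG box, the site of the SRF protein itself; capitals mark both.
Srf: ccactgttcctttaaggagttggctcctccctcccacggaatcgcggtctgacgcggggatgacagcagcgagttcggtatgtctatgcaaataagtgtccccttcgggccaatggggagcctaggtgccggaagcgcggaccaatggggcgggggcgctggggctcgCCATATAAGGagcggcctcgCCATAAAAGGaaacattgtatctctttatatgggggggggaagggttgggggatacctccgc
A CArG box was present in 1.63% of all promoters searched, and Srf was the only 1 of the 8 listed genes found in the promoter table to hold one.

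Maff kept a part of its rise in the values, and its SUR against LPS call did not hold in every fit without 1 library. MAFF is a small Maf protein, a leucine zipper factor without an activation domain that pairs with partners such as NRF2 (chr15:79346621-79359078, plus strand). Maff measured 25.1, 23.8 and 32.8 CPM in SUR, against 92.4, 97.7 and 100 CPM in LPS and 14.5, 4.81 and 2.56 CPM in CON. The 3 groups did not overlap, and CON 1 was the highest of the CON libraries. Maff was 13.2-fold higher in LPS than in CON (log2 3.73, SE 0.483, adjusted p = 0.000854; log2 4.72 without CON 1) and 3.55-fold lower in SUR than in LPS (log2 −1.83, SE 0.433, adjusted p = 0.0196). The SUR against LPS call was lost without LPS 2 (adjusted p = 0.0596), LPS 3 (0.0594), SUR 2 (0.0795) or SUR 3 (0.0531), with log2 values of −1.98 to −1.76. With the block this call was kept (adjusted p = 0.000176), and the within-number differences of SUR from LPS were −1.87, −2.03 and −1.61. Between SUR and CON the log2 difference was 1.90 (interval 0.83 to 2.96, adjusted p = 0.171); the block brought the adjusted p to 0.00753, and leaving out CON 1 gave a log2 of 2.88 with an adjusted p of 0.000985. RefSeq gives 3 Maff starts; the bases before the middle one (chr15:79347270-79347519, plus strand, GRCm38.p6) are shown because they hold 3 different matches, an E-box CACGTG, an EGR site GCGTGGGCG and a cyclic AMP response element (CRE) TGACGTCA, in this order and in capitals.
Maff: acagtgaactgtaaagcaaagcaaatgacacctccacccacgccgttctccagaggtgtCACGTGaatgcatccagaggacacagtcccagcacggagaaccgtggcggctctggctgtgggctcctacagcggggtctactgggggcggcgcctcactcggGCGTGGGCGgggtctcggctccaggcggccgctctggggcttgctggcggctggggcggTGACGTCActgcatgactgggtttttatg
These were present in 7.15%, 0.612% and 1.79% of all promoters searched.

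Nr4a1, which encodes the orphan nuclear receptor NUR77 (chr15:101253902-101274795, plus strand), was low in all groups. It measured 8.65, 7.57 and 5.56 CPM in SUR, against 9.76, 8.17 and 9.83 CPM in LPS and 8.17, 8.10 and 9.17 CPM in CON. All 3 groups overlapped. The log2 difference was 0.13 for LPS over CON (interval −0.25 to 0.51, adjusted p = 0.726), −0.35 for SUR over LPS (interval −0.73 to 0.03, adjusted p = 0.206) and −0.22 for SUR over CON (interval −0.61 to 0.16, adjusted p = 0.838). A rise of Nr4a1 in LPS of more than 1.42-fold lay outside the interval at this single time of 4 h.

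Of the 3 IER genes named for an immediate-early response, the fit without the block called only Ier5 between SUR and LPS. Whether the 3 genes differ from each other in SUR was not tested. Ier2 encodes a nuclear protein linked to transcription and cell motility (chr8:84661331-84662852, minus strand). Ier2 measured 92.6, 92.8 and 131 CPM in SUR, against 75.5, 87.8 and 93.6 CPM in LPS and 37.7, 39.5 and 42.0 CPM in CON. Both stimulated groups stood above CON and overlapped with each other. Ier2 was 2.15-fold higher in LPS than in CON (log2 1.11, adjusted p = 0.000874) and 2.65-fold higher in SUR than in CON (log2 1.41, adjusted p = 0.0117). SUR over LPS was 0.30 on the log2 scale (interval −0.02 to 0.62, adjusted p = 0.193); with the block Ier2 was called higher in SUR than in LPS (log2 0.29, adjusted p = 0.00684), as were 22.6% of all tested genes.

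Ier5, whose product is a regulator of heat shock factor 1 and protein phosphatase 2A (chr1:155096367-155099636, minus strand), had SUR values between those of LPS and CON. It measured 139, 133 and 138 CPM in SUR, against 166, 175 and 189 CPM in LPS and 98.8, 94.4 and 84.2 CPM in CON. The groups did not overlap. Ier5 was 1.91-fold higher in LPS than in CON (log2 0.93, SE 0.0776, adjusted p = 8.77e-05), 1.29-fold lower in SUR than in LPS (log2 −0.37, SE 0.0768, adjusted p = 0.0106), and 1.48-fold higher in SUR than in CON (log2 0.56, adjusted p = 0.0275). The SUR against CON call was lost in 7 of the 9 fits that left out 1 library, namely CON 2, CON 3, LPS 2, LPS 3 or any SUR library, with adjusted p values of 0.0507 to 0.160. On the authors' FPKM values, which are scaled for gene length and library size, the SUR against LPS call was lost (log2 −0.23, adjusted p = 0.0571 with a pseudocount of 0.1). The transcript models deposited for Ier5 reach past the RefSeq gene and are on the plus strand, so reads of a neighbouring transcript cannot be told apart from its own.

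Ier3, also called IEX-1, encodes a regulator of apoptosis and ERK signalling and is a known NF-kappaB target (chr17:35821713-35822911, plus strand). It measured 189, 139 and 155 CPM in SUR, against 167, 122 and 122 CPM in LPS and 93.5, 37.1 and 14.1 CPM in CON. Every SUR and LPS library was above every CON library, but the CON libraries differed among themselves more than the other groups did. Ier3 was 2.84-fold higher in LPS than in CON (log2 1.51, interval 0.31 to 2.70, adjusted p = 0.0868), with within-number differences of 0.84, 1.71 and 3.11. The block brought a call (log2 1.65, adjusted p = 0.00167), as did limma-voom (log2 1.89, adjusted p = 0.0373) and leaving out CON 1 (log2 2.43, adjusted p = 0.00267). SUR over LPS was 0.23 (interval −0.93 to 1.39, adjusted p = 0.831), an interval that runs from 0.525 to 2.62 in fold. SUR over CON was 1.74 (adjusted p = 0.290; with the block 1.90, adjusted p = 0.00437; without CON 1 2.65, adjusted p = 0.0110). The bases before the Ier3 start (chr17:35821463-35821712, plus strand, RefSeq, GRCm38.p6) are shown because they hold a kappaB site, read on the minus strand and marked in capitals.
Ier3: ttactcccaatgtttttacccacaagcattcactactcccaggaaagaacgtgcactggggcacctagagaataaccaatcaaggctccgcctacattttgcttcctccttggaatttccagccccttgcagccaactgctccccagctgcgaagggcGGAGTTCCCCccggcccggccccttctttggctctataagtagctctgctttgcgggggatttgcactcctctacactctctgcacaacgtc
A kappaB site was present in 8.46% of all promoters searched.

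The genes tied to growth arrest and DNA damage were not called different between SUR and LPS. Btg2 encodes an antiproliferative protein that recruits the CCR4-NOT deadenylase and is a known p53 target (chr1:134074865-134079155, minus strand). Btg2 measured 159, 116 and 188 CPM in SUR, against 219, 145 and 240 CPM in LPS and 43.0, 12.2 and 9.35 CPM in CON. SUR and LPS overlapped and both stood above CON, of which CON 1 was the highest. Btg2 was 9.33-fold higher in LPS than in CON (log2 3.22, SE 0.534, adjusted p = 0.00305), and without CON 1 the log2 value was 4.23. SUR over LPS was −0.38 (interval −1.48 to 0.71, adjusted p = 0.674), and all 3 within-number differences were negative, at −0.46, −0.32 and −0.35. SUR over CON was 2.84 (7.16-fold, interval 3.13 to 16.4 in fold) with an adjusted p of 0.0742; a call came with the block (log2 2.91, adjusted p = 0.000539), by DESeq2 (adjusted p = 0.000302), by limma-voom (adjusted p = 0.0308) and without CON 1 (log2 3.84, adjusted p = 0.000809). In the authors' deposited table the Btg2 log2 fold change of SUR over CON was 2.84 with q = 0.00636. The bases before the Btg2 start (chr1:134079156-134079405, minus strand, RefSeq, GRCm38.p6) are shown because they hold the CRE TGACGTCA, in capitals, as the printed Maff bases do. Whether Btg2 and Maff differ in SUR was not tested.
Btg2: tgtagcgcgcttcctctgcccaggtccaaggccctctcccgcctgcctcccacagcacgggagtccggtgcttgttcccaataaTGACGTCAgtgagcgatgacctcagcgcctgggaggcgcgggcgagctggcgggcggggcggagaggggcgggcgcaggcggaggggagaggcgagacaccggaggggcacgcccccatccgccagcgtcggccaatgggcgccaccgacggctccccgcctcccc
An exact match to TGACGTCA was in the promoters of Btg2 and Maff among the 8 listed genes, and variants of this site were not searched.

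Gadd45b encodes a stress sensor that binds and activates the kinase MAP3K4 (chr10:80930091-80932204, plus strand). It measured 74.1, 71.5 and 81.9 CPM in SUR, against 79.9, 75.6 and 96.5 CPM in LPS and 42.5, 43.8 and 39.5 CPM in CON. SUR and LPS overlapped, and both stood above CON. Gadd45b was 2.00-fold higher in LPS than in CON (log2 1.00, SE 0.101, adjusted p = 0.000231) and 1.81-fold higher in SUR than in CON (log2 0.85, SE 0.101, adjusted p = 0.0180). SUR over LPS was −0.15 (interval −0.37 to 0.08, adjusted p = 0.379), a difference that turned to 0.01 on the log2(FPKM + 0.1) scale. The lower end of that interval corresponds to 0.772 of the LPS level.

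**Figure D2:**
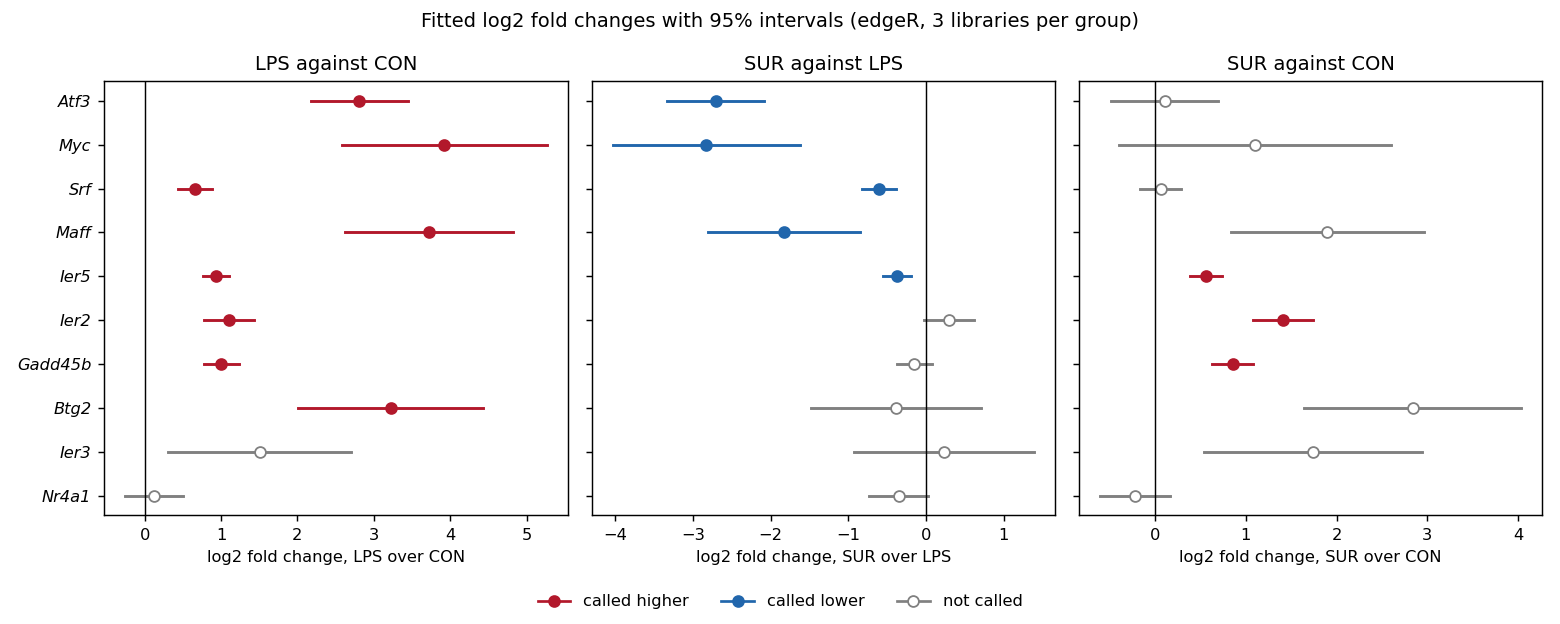
Fitted log2 fold changes of the 10 genes with 95% intervals from edgeR, 3 libraries per group, for LPS over CON, SUR over LPS and SUR over CON; filled points passed an adjusted p of 0.05 and open points did not. For SUR over LPS, Atf3 (−2.71) and Myc (−2.83) lie far below 0 and Ier2 (0.30) and Ier3 (0.23) have intervals that include 0.

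The comparison of SUR with CON was the least stable. Called were 3 of the 10 genes (Ier2, Ier5 and Gadd45b); at an unadjusted p under 0.05 there were 6, by DESeq2 5 and by limma-voom 4. Among all genes 48 were called. Without CON 2 or without CON 3 the count of the 10 genes was 0, without SUR 2 or without SUR 3 it was 1, and without CON 1 it was 6. Ier5 lost its call in 7 of the 9 fits without 1 library, Gadd45b in 4 (without CON 2, CON 3, SUR 2 or SUR 3) and Ier2 in 2 (without CON 2 or CON 3). Without CON 2, 0 of all tested genes were called by edgeR. With the library number as a block 6 of the 10 genes were called higher, namely Maff, Ier2, Ier3, Ier5, Btg2 and Gadd45b, against 7.37% of all tested genes. The fold changes themselves moved less: over the fits that left out 1 library, SUR over CON was 1.22 to 1.497 for Ier2, 0.50 to 0.61 for Ier5 and 0.80 to 0.90 for Gadd45b. CON 1 had the highest CON level of Atf3, Maff, Ier3, Ier5 and Btg2; the part of the library number in these values was not tested beyond the block.

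**Figure D3:**
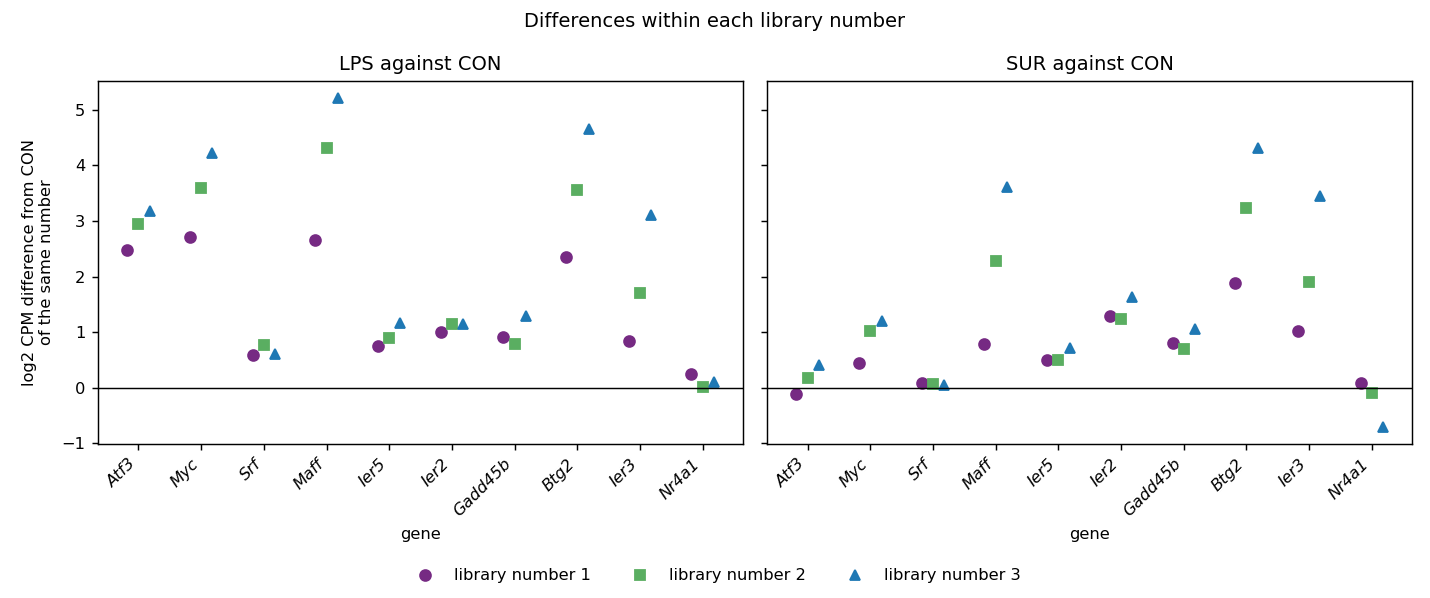
Log2 CPM difference of each LPS library (left) and each SUR library (right) from the CON library of the same number, for the 10 genes. The differences of Maff, Btg2 and Ier3 are smallest for number 1 and largest for number 3 in both panels, and those of Srf lie within 0.59 to 0.77 for LPS and 0.04 to 0.08 for SUR.

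Levels can be set against each other between genes only per length, on the authors' FPKM values, and the order of the genes differed between groups. In SUR the highest mean was that of Ier3 (204 ± 34.8 FPKM), followed by Atf3 (106 ± 23.4), Ier2 (87.2 ± 18.1) and Gadd45b (79.0 ± 5.74), each overlapping with its neighbour except Ier3 (SD, n = 3 each). In LPS Atf3 was first, at 629 ± 93.1 FPKM, and Ier3 second, at 157 ± 32.2 FPKM, with no overlap between them. Below them Gadd45b, Btg2, Ier2, Ier5 and Maff lay between 47.8 and 90.5 FPKM in single LPS libraries and overlapped in part. In CON Atf3 (98.4 ± 39.3 FPKM) and Ier3 (60.7 ± 52.0 FPKM) were again the highest and overlapped. Nr4a1 and Myc had the lowest means in every group, at 3.17 and 0.523 FPKM in SUR, 3.64 and 3.37 FPKM in LPS and 3.69 and 0.24 FPKM in CON. In CON this order rested on CON 1: Maff had 8.68, 2.83 and 1.57 FPKM in the CON libraries and Nr4a1 3.55, 3.50 and 4.01 FPKM, and Btg2 in CON 3 (3.45 FPKM) was also below Nr4a1.

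For the listed genes other than Myc, the pair of genes with the most similar profile over the 9 libraries was found among tested genes whose log2 CPM averaged 4 or more, by the root-mean-square difference of log2 CPM after centring each gene on its own mean. Smaller values are closer, and all genes share the same libraries. Nearest to Srf was Gramd1b (0.0593) and then Vasp (0.0680), an actin regulator. Nearest to Atf3 were Helz2 (0.199), an interferon-inducible helicase, and Rapgef2 (0.206). Maff had Gadd45a (0.164) and Tnfsf9 (0.195), and Ier5 had Dyrk2 (0.0783) and Birc2 (0.0927). Btg2 had Egr2 (0.375) and Socs3 (0.387), and Ier3 had Zfp36 (0.319) and Zfp36l1 (0.404), which encode mRNA decay factors of 1 family. Gadd45b had Kcnj2 (0.113) and Ier5 (0.146), Ier2 had Spata13 (0.173) and Gadd45b (0.269), and Nr4a1 had Gsk3a (0.134) and Mtrex (0.135).

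Close relatives of the 10 genes did not move as 1 group. Of 20 tested relatives, 6 were higher and 3 lower in LPS than in CON, 3 were higher and 4 lower in SUR than in LPS, and 2 were higher in SUR than in CON. With the block 4 were higher and 7 lower in SUR than in LPS, against 22.6% and 22.7% of all tested genes. Between SUR and CON the block called 6 higher and 3 lower, against 7.37% and 4.18% of all tested genes; 7 were called without the libraries numbered 1, and 0 without CON 2, LPS 2, SUR 2 or SUR 3. Their median log2 fold changes were 0.13, −0.03 and 0.07, of which the first was −0.02 and the second 0.09 on the log2(FPKM + 0.1) scale. Of all tested genes, 8.98% were higher and 9.36% lower in LPS than in CON without the block. In SUR 9.29% were higher and 7.93% lower than in LPS, and 0.39% were higher than in CON. Gadd45a, the p53-responsive paralog of Gadd45b, averaged 21.6 ± 3.81 CPM in SUR, 87.9 ± 5.65 CPM in LPS and 5.19 ± 3.80 CPM in CON (SD, n = 3 each). It was 16.9-fold higher in LPS than in CON (log2 4.08, adjusted p = 0.000216; 3.71 to 4.86 over the fits without 1 library) and 4.08-fold lower in SUR than in LPS (adjusted p = 0.00518), where Gadd45b was not called (log2 −0.15); the difference between the paralogs was not tested. Gadd45a was 4.14-fold higher in SUR than in CON, with an adjusted p of 0.0857 (0.00278 with the block). Gadd45g averaged 1.28 CPM in LPS and 1.10 CPM in CON and was not called. Nr4a2, a paralog of Nr4a1, averaged 9.08 ± 1.53 CPM in SUR, 15.0 ± 2.03 CPM in LPS and 3.34 ± 0.536 CPM in CON. It was 4.49-fold higher in LPS than in CON (adjusted p = 9.64e-05), 1.65-fold lower in SUR than in LPS (adjusted p = 0.0188; 0.0731 without LPS 3) and 2.71-fold higher in SUR than in CON (adjusted p = 0.0213; 0.109 without SUR 2).

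Btg1, the paralog of Btg2, averaged 203 ± 4.57 CPM in SUR, 360 ± 20.4 CPM in LPS and 113 ± 18.2 CPM in CON. It was 3.20-fold higher in LPS than in CON (adjusted p = 4.58e-05), 1.78-fold lower in SUR than in LPS (adjusted p = 0.00141) and 1.80-fold higher in SUR than in CON (adjusted p = 0.0225; 0.120 without CON 2). Ier5l, a paralog of Ier5, went the other way: it averaged 5.64 ± 1.12 CPM in SUR, 2.31 ± 0.379 CPM in LPS and 9.86 ± 2.23 CPM in CON. It was 4.27-fold lower in LPS than in CON (adjusted p = 0.000347) and 2.44-fold higher in SUR than in LPS (adjusted p = 0.00554). Among leucine zipper genes, Jdp2, which encodes an AP-1 repressor, was higher in LPS than in CON (log2 1.28, adjusted p = 0.0123) and lower in SUR than in LPS (log2 −1.23, adjusted p = 0.0158; 0.0576 without LPS 2). Ddit3, the stress factor CHOP, was lower in LPS than in CON (log2 −0.94, adjusted p = 0.00111) and higher in SUR than in LPS (log2 0.65, adjusted p = 0.00923).

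**Figure D4:**
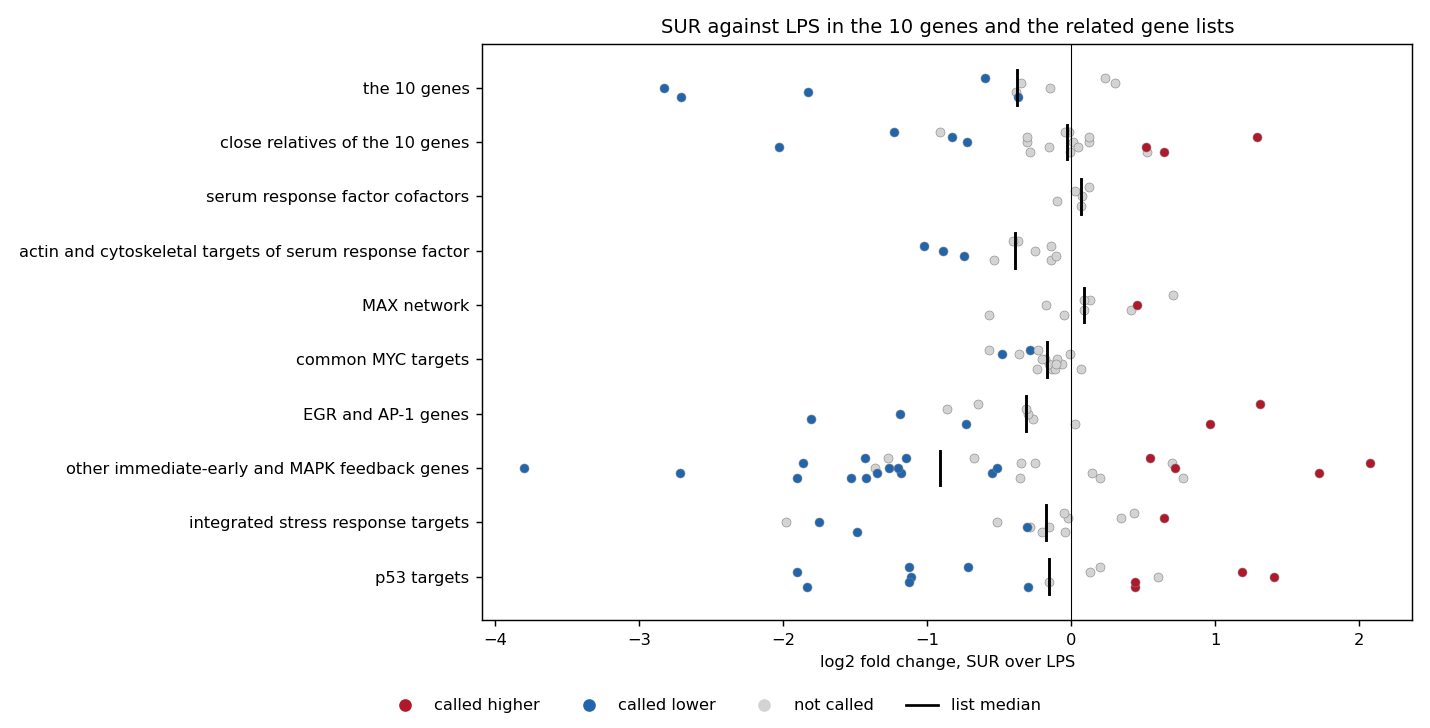
Log2 fold change of SUR over LPS by edgeR, with a point for each tested gene of the listed genes and of the related lists. Red points were called higher and blue points lower at an adjusted p of 0.05. Grey points were not called, and the bar is the median of each list. Among the 28 other immediate-early and MAPK feedback genes 4 were higher and 14 lower in SUR than in LPS, while the 5 SRF cofactors had no call.

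The partners and targets of SRF were read beside Srf. Of the 5 tested cofactors, which link SRF to MAP kinase or to actin, edgeR called 0 in each of the 3 comparisons, as did DESeq2, and 0 had an unadjusted p under 0.05; with the block 1 was higher in LPS than in CON. The medians of 10 actin and cytoskeletal targets were 0.30 for LPS over CON, −0.39 for SUR over LPS and −0.04 for SUR over CON. In LPS 3 were higher than in CON (all tested genes, 8.98%), and in SUR 3 were lower than in LPS (7.93%). The 3 genes were the same in both comparisons: Tpm4, a tropomyosin; Vcl, which encodes vinculin; and Actg1, a cytoplasmic actin. Tpm4 averaged 134 ± 7.76 CPM in SUR, 248 ± 13.2 CPM in LPS and 152 ± 7.92 CPM in CON, with log2 changes of 0.71 in LPS over CON (adjusted p = 0.000241) and −0.89 in SUR over LPS (adjusted p = 0.000211). Vcl had log2 changes of 0.77 (adjusted p = 0.0326; 0.112 without LPS 2 and 0.0555 on FPKM) and −1.03 (adjusted p = 0.0102), and Actg1 of 0.73 (adjusted p = 0.0239; 0.0854 without LPS 2) and −0.74 (adjusted p = 0.0236; 0.0845 without LPS 2). With the block 8 of the 10 targets were higher in LPS than in CON (all tested genes, 20.1%). All 10 were lower in SUR than in LPS (22.7%), and 2 were lower in SUR than in CON (4.18%). Without the libraries numbered 1 the counts for LPS against CON and for SUR against LPS were both 8. The count for LPS against CON was 1 without CON 1, CON 2, LPS 2 or LPS 3, and that for SUR against LPS was 6 without LPS 1.

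Of 16 common MYC targets, 2 were higher in LPS than in CON, a share near the 8.98% of all tested genes: Odc1, the first enzyme of polyamine synthesis (log2 0.41, adjusted p = 0.00338), and Tfrc, the transferrin receptor (log2 0.42, adjusted p = 0.0193; 0.0806 without CON 3). In SUR 2 were lower than in LPS, where 7.93% of all genes were: Ldha, lactate dehydrogenase (log2 −0.29, adjusted p = 0.00506), and Nop56, a nucleolar protein (log2 −0.48, adjusted p = 0.0236; 0.0804 without SUR 2). With the block 8 were higher in LPS than in CON (all tested genes, 20.1%) and 11 lower in SUR than in LPS (22.7%). The block also called 2 higher and 1 lower in SUR than in CON (7.37% and 4.18%). On the log2(FPKM + 0.1) scale the first 2 counts were 1 and 0, and over the fits without 1 library 1 to 5 and 1 to 4. Of 9 genes of the MAX network 1 was higher in LPS than in CON, Mxd1, which encodes a MAX partner that opposes MYC (log2 1.49, adjusted p = 0.00962). For SUR against LPS 1 of the 9 was higher (all tested genes, 9.29%), namely Mxd4, another MAX partner (log2 0.46, adjusted p = 0.0147). The count was 4 with upper-quartile scaling, 5 on FPKM and 0 without LPS 2, LPS 3, SUR 1 or SUR 2. With the block 1 of the 9 was higher and 2 lower in LPS than in CON (all tested genes, 20.1% and 21.7%). In SUR the block called 3 higher and 2 lower than in LPS (22.6% and 22.7%), and 4 higher than in CON (7.37%). Mxd1 was among the lower ones in SUR against LPS (log2 −0.57 and adjusted p = 0.241 without the block, 0.00153 with it).

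Other early genes gave the wider setting of the 10. Of 11 EGR and AP-1 genes, 10 were higher in LPS than in CON (all tested genes, 8.98%). In SUR 2 were higher and 3 lower than in LPS (9.29% and 7.93%), and 5 were higher than in CON (0.39%). With the block 2 were higher and 6 lower in SUR than in LPS (all tested genes, 22.6% and 22.7%). The block called 10 higher in SUR than in CON (7.37%). In the fit without CON 2, made without the block, 0 were called between SUR and CON. Of 28 other immediate-early and MAPK feedback genes, 19 were higher and 4 lower in LPS than in CON (8.98% and 9.36%). In SUR 4 were higher and 14 lower than in LPS (9.29% and 7.93%), and 6 were higher than in CON (0.39%). The medians of this list were 1.89 for LPS over CON and −0.91 for SUR over LPS. With the block 20 were higher and 2 lower in SUR than in CON (all tested genes, 7.37% and 4.18%). Without the block, 12 were called without CON 1 and 0 without CON 2, CON 3 or SUR 3.

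Target genes of the stress pathways that can induce Atf3, Btg2 and Gadd45 genes were called in both directions. Of 14 integrated stress response targets, 5 were higher and 2 lower in LPS than in CON (all tested genes, 8.98% and 9.36%). In SUR 1 was higher and 3 lower than in LPS (9.29% and 7.93%). With the block 3 were higher and 8 lower in SUR than in LPS (22.6% and 22.7%). Between SUR and CON the block called 2 higher and 2 lower (7.37% and 4.18%). Ppp1r15a, which encodes the phosphatase subunit GADD34, had the largest change of the list in LPS over CON by edgeR (log2 3.46, adjusted p = 0.00556; 3.00 to 4.65 over the fits without 1 library). In SUR over LPS its log2 change was −1.98 (adjusted p = 0.0553; 0.00344 with the block). Nupr1, a stress-induced chromatin protein, had log2 changes of 2.17 in LPS over CON (adjusted p = 0.000573) and −1.49 in SUR over LPS (adjusted p = 0.00432). Slc7a11, the cystine transporter subunit, had 1.62 (adjusted p = 0.0102) and −1.75 (adjusted p = 0.00813). Ddit4, an inhibitor of mTORC1, was 4.08-fold lower in LPS than in CON (adjusted p = 9.22e-05) and 3.01-fold lower in SUR than in CON (adjusted p = 0.0117; 0.0833 without SUR 3), a direction called for 0.0355% of all tested genes. Of 15 p53 targets, 7 were higher and 1 lower in LPS than in CON (all tested genes, 8.98% and 9.36%). In SUR 4 were higher and 7 lower than in LPS (9.29% and 7.93%). Between SUR and CON edgeR called 0 of them, with 7 at an unadjusted p under 0.05 and 6 by DESeq2. With the block 9 were higher in SUR than in CON, against 7.37% of all tested genes. Fas, a death receptor gene, was 7.94-fold higher in LPS than in CON (adjusted p = 0.000415) and 3.57-fold lower in SUR than in LPS (adjusted p = 0.00432). Plk2, a polo-like kinase gene that also stands in the list of other immediate-early genes, had log2 changes of 2.96 in LPS over CON (adjusted p = 0.00292) and −1.90 in SUR over LPS (adjusted p = 0.0224; 0.0889 without SUR 3). Pmaip1, which encodes the pro-apoptotic protein NOXA, had 2.25 (adjusted p = 0.000418) and −1.13 (adjusted p = 0.0126; 0.0519 without LPS 2). Mdm2, the p53 ubiquitin ligase gene, had log2 changes of 1.67 (adjusted p = 4.02e-05) and −1.12 (adjusted p = 0.000282), and Sesn1, a stress-responsive mTORC1 regulator, had −1.17 (adjusted p = 0.000659) and 1.41 (adjusted p = 0.000422).

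The motifs searched were few and short, and the CRE was searched only as the exact TGACGTCA. Among the 8 genes in the promoter table, with 10 promoters in all, a kappaB site was present for Ier3, Nr4a1 and Maff, an E-box for Gadd45b and Maff, a CRE for Btg2 and Maff, and each of the CArG box, the EGR site and TTGCATCA for 1 gene. The AP-1 site TGANTCA, present in 7.81% of all promoters, was in none of the 10. Both strands were searched and no printed match overlapped another. A match describes letters in this window only.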

How the data were processed

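Total RNA of 9 MH-S libraries was sequenced. HISAT2 2.0.4 and the mouse build GRCm38 (mm10) are named in the submitters' processing notes. Which tool counted reads, with what strand setting and annotation, is not given in the sources used here. Per the file headers, the authors' gene table holds expected counts without normalization; 93.4% of them were whole numbers, and the rest were rounded. Its FPKM columns were scaled for length and depth by the authors, and the deposited TPM columns entered no test. The authors' deposited log2 fold changes and q-values run second group over first and are quoted only where named.

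Genes were kept by edgeR's filterByExpr (11281 tested, 3490 not) and scaled by TMM, with factors of 0.934 to 1.04. Groups were compared by the quasi-likelihood F test of edgeR 4.0.16 in R 4.3.3, with all 9 libraries in 1 fit of 3 group means, Benjamini-Hochberg adjustment over all tested genes, and a threshold of 0.05. The spread of each gene was shared by the 3 groups, so a wide CON group also widens SUR against LPS. Standard errors and 95% intervals were derived from the F statistic. CPM values use the TMM-scaled library sizes. Fits on FPKM used limma 3.58.1 on log2(FPKM + 0.1) and log2(FPKM + 1), scales that understate changes of low genes. The script was tested on simulated counts for LPS against CON over 11281 genes: of 100 genes changed by a log2 fold of 1, 82% were recovered, and of 100 changed by 2, 95%.

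Library numbers are shared between the groups in the titles. Same-numbered libraries deviated together (r = 0.435 to 0.801 over 9 pairs), so the numbers were taken to pair the libraries, and the fit with the number as a block is printed where it changes a printed call of a gene or moves a list's count by over 1.5 times. Alternatives were DESeq2 1.42.0, limma-voom, other scalings, no filter, FPKM, only the groups compared, and leaving out libraries.

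The 10 genes and the gene lists were chosen with earlier results of these data known. All 10 genes are named; genes named from a list were chosen among the 4 called genes with the largest changes in any 1 comparison, not all of which are named, and are then given in other comparisons too. The EGR and AP-1 list and the list of other early genes are given mainly as counts. For a gene of a list, the library named is the one whose removal gave the highest adjusted p. The values of Gadd45g were chosen after they were seen. Coordinates are those of RefSeq on GRCm38.p6, since the deposited coordinates of Ier3 mix an alternate scaffold with chromosome 17. The Ier3 and Nr4a1 rows also pool transcripts beyond the RefSeq gene. Promoter sequences are from RefSeq (GRCm38.p6). Plots were made with matplotlib 3.10.9 (Python 3.11.15). The genes nearest to Myc in profile and 1 relative of the listed genes are not reported here.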

Additional observations from a re-analysis of the deposited data

How the results depend on the processing

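Each fold change of the 10 genes was recomputed under 19 alternatives, which gave 570 values: 522 kept their direction and side of the threshold, 20 passed the threshold where they had not, 21 lost it and 7 turned sign. The sign turned only for values near 0: Nr4a1 in LPS over CON (−0.023 on FPKM with a pseudocount of 0.1 and −0.018 with 1), Gadd45b in SUR over LPS (0.0080 and 0.0079 on the same scales), and SUR over CON for Srf without CON 1 (−0.0027) and for Atf3 without CON 3 (−0.11) and without SUR 1 (−0.07). Leaving out 1 library gave −0.0027 to 0.11 for Srf and −0.11 to 0.46 for Atf3. On FPKM the median of all genes shifted by −0.13 for LPS over CON and by 0.14 for SUR over LPS, so changes on that scale read against these shifts.

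Of the 10 genes, 8 or 9 were called for LPS against CON and 4 to 6 for SUR against LPS under each alternative. For SUR against CON the count was 3, against 5 by DESeq2, 1 with only the groups compared, 6 with the replicate block, 6 without the libraries numbered 1, and 0 to 6 when leaving out 1 library. Over all genes the replicate block gave 4714 calls for LPS against CON, 5109 for SUR against LPS and 1302 for SUR against CON, where the fit without it gave 2069, 1943 and 48. Without the libraries numbered 1 the counts were 3415, 3391 and 587. Leaving out 1 library gave 1379 to 2075, 1208 to 2054 and 0 to 168, and for SUR against CON DESeq2 gave 257 and the fit of only these groups 4. Counts of called genes in the lists under other settings were added after seeing the data. Myc had 6 to 150 counts and Nr4a1 95 to 154 counts per library, and the part of depth in their errors was not tested. The causes of these differences were not tested.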
